A study of Rattus with 26 samples.

Results

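The genes described here encode the nuclear subunits of oxidative phosphorylation complexes I, III, IV and V in rat hippocampus. Members were every gene whose symbol in the probe annotation begins with Ndufa, Ndufb, Ndufc, Ndufs, Ndufv, Uqcr, Cox4 to Cox8 or Atp5, leaving out the Ndufaf assembly factors, and each gene was read from its brightest probe cluster. This gave 70 of the 15037 named genes on the array. Complex I held 34 of them, complex III 8, complex IV 14 and complex V 14. A filter on dim clusters left 66 members among the 11475 genes tested, and the 4 members below it, Cox4i2, Cox6a2, Cox8b and Ndufa4l2, are given by level only.

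Complex I takes electrons from NADH and passes them to ubiquinone, complex III carries them on to cytochrome c, and complex IV hands them to oxygen. These complexes pump protons across the inner mitochondrial membrane, and complex V, the ATP synthase, lets the protons return and makes ATP. Each complex joins a few catalytic core subunits to many small accessory ones, and neurons, which spend much of their ATP on ion pumping, depend heavily on this pathway.

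The animals were male F344 rats, 2 or 18 months old when treatment began and 5 or 21 months old at its end. For 3 months they received either insulin aspart, a fast-acting insulin analogue, or saline through the nose, and all of them were trained in the Morris water maze before the hippocampus was taken. Each of the 26 animals gave 1 array: 6 were young and 8 aged in the saline arm, 5 young and 7 aged in the aspart arm. The labels give no genetic modification, and RNA came from whole hippocampus, so fewer cells of a type and less RNA per cell cannot be told apart in any value below. The RNA integrity number averaged 7.32 ± 0.38 (SD, n = 6), 7.34 ± 0.19 (n = 5), 7.33 ± 0.27 (n = 8) and 7.29 ± 0.43 (n = 7) in the young saline, young aspart, aged saline and the aged aspart animals.

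Array quality was followed with the control features of each array, as control separation: the chance that a positive control feature drawn at random is brighter than a negative control feature drawn at random. It ran from 0.8154 to 0.8721 over the 26 arrays. Aged saline animals had a mean of 0.8212 ± 0.0034 (SD, n = 8), below young saline at 0.8282 ± 0.0107 (n = 6), young aspart at 0.8335 ± 0.0112 (n = 5) and aged aspart at 0.8329 ± 0.0192 (n = 7). The 4 highest arrays were aged aspart animals 6 (0.8721) and 7 (0.8415), young aspart animal 4 (0.8509) and young saline animal 6 (0.8486). No aged saline array was above 0.8271.

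Subunit transcripts were slightly lower in aged than in young hippocampus in all 4 complexes, and the shift was a broad one of small size. Over both treatments, 61 of the 66 tested members had a lower mean in aged animals, with a median difference of -0.14 on the log2 scale, against a median of -0.01 over all 11475 genes, of which 51.9% were lower. The median difference was -0.13 in complex I (29 of 33 lower), -0.17 in complex III (8 of 8), -0.10 in complex IV (10 of 11) and -0.19 in complex V (14 of 14). No single member passed an adjusted p of 0.05 in this comparison by limma, where 0.776% of all genes did. An unadjusted p under 0.05 was reached by 19 members (28.8%), all 19 lower. Of all genes 9.86% reached it, and 5.19% did so with a lower mean. The members moved together between animals, with r from 0.857 to 0.938 between complex means after group means were removed. Counts of members are therefore not counts of independent observations.

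The mean of each complex was compared between animals after each gene was set relative to its young saline mean. For complex III, aged saline animals ran from -0.29 to -0.08 with a median of -0.20, young saline animals from -0.17 to 0.23 with a median of -0.03. Young aspart animals stood at -0.08, -0.16, 0.07, 0.40 and 0.19, and aged aspart animals ran from -0.29 to 0.31 with a median of -0.09. The groups overlapped: the aged saline animals lay close together at the low end, and the highest values of the other groups came from young saline animal 6, young aspart animal 4 and aged aspart animal 6, which are 3 of the 4 arrays of highest control separation. The same 3 animals were the highest of their groups for complexes I, IV and V.

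**Figure D1:**
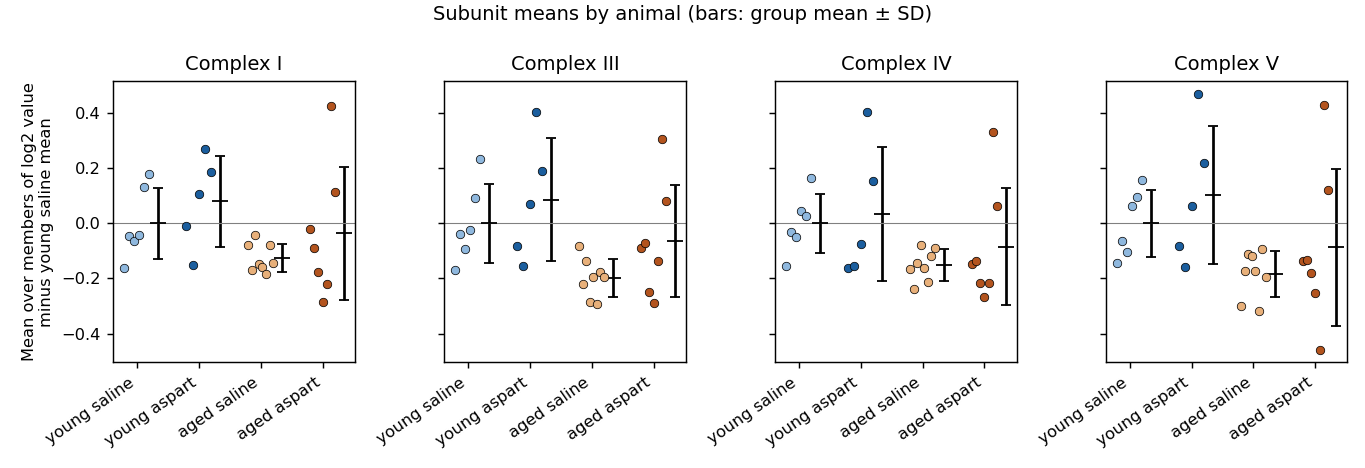
Mean over the tested members of each complex, as log2 value minus the young saline mean of each gene (vertical axis), for each of the 26 animals by group; points are animals and bars are the group mean ± SD. Aged saline animals cluster between -0.32 and -0.04 in all 4 panels, and 1 aged aspart animal stands at 0.31 to 0.43.

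In saline animals alone, 62 of 66 members had a lower mean with age, with a median of -0.15 against -0.01 over all genes. No member passed the adjusted threshold (0.261% of all genes did), and 7 members (10.6%) had an unadjusted p under 0.05, all lower, beside 6.39% of all genes in either direction and 3.12% lower. In aspart animals 60 of 66 members were lower with age, with a median of -0.14 against 0.00. Again none passed the adjusted threshold (0.0523% of all genes), and 5 members (7.58%) had an unadjusted p under 0.05, all lower, beside 5.59% of all genes and 2.51% lower. Ndufb6, Ndufa9 and Atp5mc1 were in both lists. The comparisons use different animals, and a difference between them was tested as the interaction given further on.

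Ndufb6, an accessory subunit of the proton-pumping membrane arm of complex I, had the largest difference with age of any member. Young saline animals ran from 10.01 to 10.67 on the log2 scale with a median of 10.11, and the aged saline animals from 9.21 to 9.98 with a median of 9.83. These groups did not overlap, as all 8 aged animals lay below all 6 young ones. Young aspart animals had 10.35, 10.04, 10.53, 10.42 and 10.63, and aged aspart animals ran from 9.38 to 10.98 with a median of 9.96. In the aspart animals 5 of 7 aged values were below every young one, and 1, animal 6, was above them all. The difference was -0.43 ± 0.12 (SE) over both treatments, which is 1.35-fold lower on this scale, with an adjusted p of 0.0951 by limma.

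Within complex I, the matrix arm, where NADH is oxidised, had a median of -0.09 over 14 members (11 lower) and the membrane arm a median of -0.15 over 16 members (15 lower). Ndufa9, an accessory subunit at the joint of both arms, ran from 12.92 to 13.38 in young saline animals and from 12.83 to 13.12 in aged saline animals, with medians of 13.27 and 13.02. Young aspart values were 13.28, 13.11, 13.39, 13.39 and 13.23, and aged aspart values ran from 12.69 to 13.53. The groups overlapped, with 3 of 8 aged saline animals below all young saline ones, and the difference over both treatments was -0.24 ± 0.08 (adjusted p = 0.200 by limma).

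The 6 catalytic core members of complex I had a median of -0.08, with 5 lower. Ndufs1, the largest core subunit, which carries iron-sulfur clusters, ran from 12.70 to 12.96 in young saline and 12.57 to 13.05 in aged saline animals, a difference over both treatments of -0.04 ± 0.08. Ndufv1, which binds NADH and the flavin, differed by -0.08 ± 0.08, and Ndufv2, its iron-sulfur partner, by 0.00 ± 0.10. Ndufs3 differed by -0.09 ± 0.08, and Ndufs7 and Ndufs8, which carry the last iron-sulfur clusters before ubiquinone, by -0.20 ± 0.08 and -0.16 ± 0.11, so core members spanned the median of the complex. Ndufs4, an accessory subunit needed for full assembly of the matrix arm, differed by 0.03 ± 0.08 over both treatments. Its mean was higher in aged saline (12.11 ± 0.14, n = 8) than in young saline animals (11.97 ± 0.07, n = 6). In aspart animals the mean was lower with age, with 11.98 ± 0.27 (n = 7) in aged and 12.07 ± 0.04 (n = 5) in young animals. The medians did not reverse, at 12.104 in aged and 12.085 in young aspart animals. The lowest aged aspart value, 11.507, was that of animal 6. Of the 7 aged aspart animals 3 lay below and 4 above every young aspart one. Ndufa2 had the highest difference of the complex at 0.04 ± 0.11. Of these, the 95% interval left out 0 for Ndufs7, whose adjusted p was 0.391 by limma.

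Ndufab1, the mitochondrial acyl carrier protein that is also a complex I subunit, differed by -0.15 ± 0.09 over both treatments. Its difference was -0.05 ± 0.12 in saline animals and -0.25 ± 0.14 in aspart animals. Ndufa4 carries a complex I symbol and was later assigned to complex IV, and its difference was -0.15 ± 0.07. The other members of complex I that the ranking by size picked out in saline animals were Ndufb10, at -0.26 ± 0.14, and Ndufa1, at -0.25 ± 0.17, both of the membrane arm.

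In complex III the 5 small subunits had a median of -0.22 over both treatments and the 3 core members, Uqcrc1, Uqcrc2 and the iron-sulfur protein Uqcrfs1, a median of -0.10. The values of both kinds crossed, and the difference between them was not tested. Uqcrq ran from 11.79 to 12.25 in young saline and 11.46 to 11.96 in aged saline animals, with 12.08, 11.60, 12.13, 12.83 and 12.31 in young aspart and 11.03 to 12.87 in aged aspart animals. Both treatments' groups overlapped, and the difference was -0.28 ± 0.13 (adjusted p = 0.481 by limma). Uqcr10 and Uqcr11 differed by -0.24 ± 0.11 and -0.22 ± 0.10. Uqcrb, next to the ubiquinone site, differed by -0.21 ± 0.11 in saline and -0.02 ± 0.12 in aspart animals (-0.11 ± 0.08 over both), and Uqcrh, the hinge protein by cytochrome c1, by -0.12 ± 0.09 and -0.16 ± 0.10. Of the core members Uqcrc1 differed by -0.20 ± 0.13 over both treatments, Uqcrfs1 by -0.10 ± 0.10 and Uqcrc2 by -0.09 ± 0.07.

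The members of complex IV are nuclear subunits that surround a core encoded by mitochondrial DNA. Cox6b1, which faces the intermembrane space, ran from 15.36 to 15.62 in young saline animals and from 15.11 to 15.31 in aged saline animals, with no overlap. It and Ndufb6 were the only ones of the 66 tested members whose groups did not overlap in saline animals, where 0.392% of all genes did not overlap and 0.148% did so with the aged animals lower. None of the 66 was free of overlap in the other 3 comparisons of 2 groups, beside 0.392% of all genes for age in aspart animals, 0.0174% for aspart in aged and 0.192% for aspart in young animals. Young aspart values of Cox6b1 were 15.40, 15.29, 15.35, 15.65 and 15.52 against 15.04 to 15.71 in aged aspart animals, which did overlap, and the difference over both treatments was -0.18 ± 0.06 (adjusted p = 0.258 by limma).

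Cox6a1, a small regulatory subunit, had the largest difference of complex IV. Young saline animals ran from 17.05 to 17.91, aged saline animals from 16.83 to 17.27 and aged aspart animals from 16.94 to 17.72, and young aspart values were 17.37, 17.24, 17.35, 17.94 and 17.46. The ranges overlapped under both treatments, and the difference was -0.27 ± 0.09 (adjusted p = 0.199 by limma). Cox8a, the smallest subunit, differed by -0.27 ± 0.10, Cox5b by -0.20 ± 0.09 and Cox5a by -0.17 ± 0.08. Cox4i1, a subunit through which ATP regulates the enzyme, differed by -0.10 ± 0.09, as did Cox6c (-0.10 ± 0.08) and Cox7a2 (-0.10 ± 0.11). Cox7a2l, which helps join complexes III and IV into supercomplexes, differed by -0.06 ± 0.10 and Cox7b by -0.03 ± 0.10. Cox8c, an isoform best known from testis, was the single member of complex IV with no lower mean, at 0.01 ± 0.13.

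All 14 members of complex V had a lower mean in aged animals. The largest difference was that of Atp5mc1, at -0.34 ± 0.11. It encodes the c ring, which turns as protons pass, as does Atp5mc2, a separate gene for the same mature protein, at -0.25 ± 0.11. Atp5mc1 ran from 10.72 to 11.36 in young saline and 10.47 to 11.07 in aged saline animals, with 10.90, 11.01, 10.95, 11.84 and 11.21 in young aspart and 10.28 to 11.21 in aged aspart animals. The ranges overlapped, 5 of 7 aged aspart animals lay below every young aspart one, and the adjusted p over both treatments was 0.172 by limma.

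The catalytic F1 head, which makes ATP, had a median of -0.20 over 4 members. Its main subunits Atp5f1a and Atp5f1b differed by -0.13 ± 0.07 and -0.12 ± 0.06, and its small central stalk subunits Atp5f1d and Atp5f1e by -0.27 ± 0.11 and -0.26 ± 0.12. The peripheral stalk, which keeps the head from turning, had a median of -0.12 over 4 members, with Atp5pd at -0.21 ± 0.09 and Atp5po at -0.11 ± 0.13. The 3 small membrane subunits had a median of -0.19, with Atp5mk at -0.19 ± 0.12 and Atp5mg at -0.22 ± 0.15. Atp5if1, the inhibitor that stops the enzyme from running backwards, differed by -0.11 ± 0.09.

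**Figure D2:**
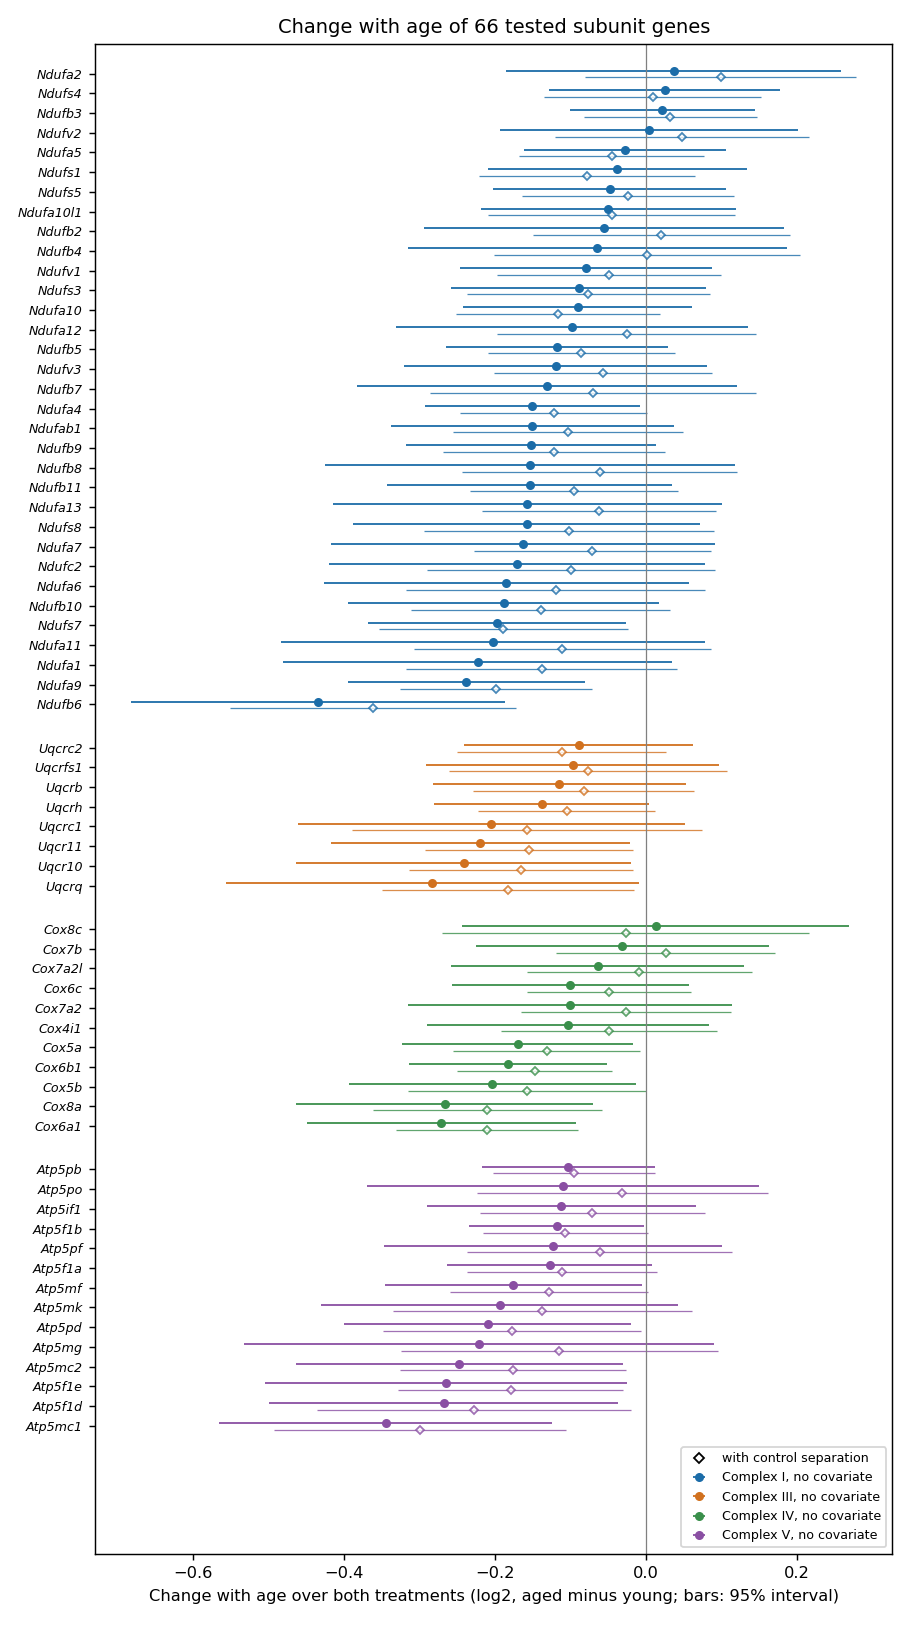
Difference with age over both treatments (horizontal axis, log2, aged minus young) of each of the 66 tested members, ordered within complexes I, III, IV and V; filled circles are the fit without a covariate, open diamonds the fit with control separation, and bars the 95% interval. Of the circles 61 lie below 0, with Ndufb6 farthest at -0.43, and most diamonds lie nearer 0 than their circles.

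The subunit means followed control separation closely. After group means were removed, the mean of all members had a Pearson r of 0.904 and a Spearman rho of 0.842 with control separation over 26 arrays, and the complexes lay at r = 0.894 (I), 0.880 (III), 0.889 (IV) and 0.830 (V). Without the 2 arrays farthest from the median, aged aspart animal 6 and young aspart animal 4, r was 0.763, 0.805, 0.777 and 0.613. Both measures come from the same array, so these are descriptions and carry no p. For all members r was 0.900 within young saline (n = 6), 0.930 within aged aspart (n = 7) and 0.140 within aged saline animals (n = 8), whose separation hardly varied. With the RNA integrity number r was 0.296 over 26 arrays. With the negative control median it was -0.884, and with the positive control median 0.322.

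**Figure D3:**
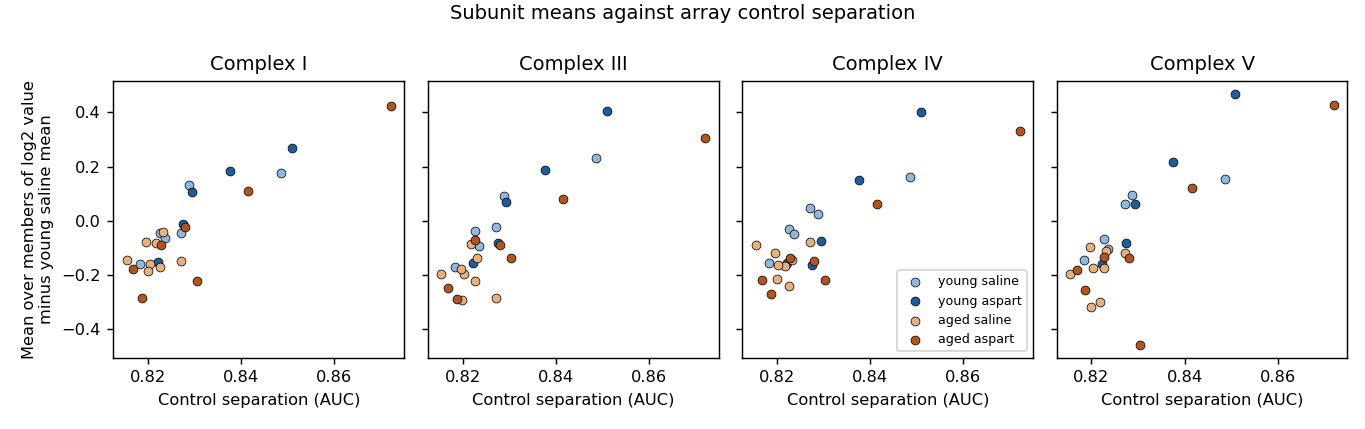
Mean of each complex (vertical axis, log2 relative to young saline) against control separation (horizontal axis, area under the curve, no unit) for the 26 arrays, coloured by group. In every panel the points rise to the right, and the far right point, at 0.8721, is aged aspart animal 6.

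Single members shared this relation to different degrees. The median r with control separation was 0.659 over the 66 members, and 47 of them (71.2%) were above 0.5, while over all genes the median was 0.066 and 16.5% were above 0.5. Ndufa7, a matrix arm accessory subunit, had the highest r at 0.862, and a step of 0.01 in separation went with 0.24 on its log2 scale. Ndufs1 had the lowest, at -0.627 and -0.11 per step. The small subunits of complex III had a median r of 0.792 (5 members) and its core a median of 0.281 (3 members); the F1 head of complex V, with a median of 0.375 over 4 members, ran from 0.308 for Atp5f1b to 0.837 for Atp5f1e. The core members of complex I had a median of 0.372 and the accessory members of its matrix arm 0.73.

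**Figure D4:**
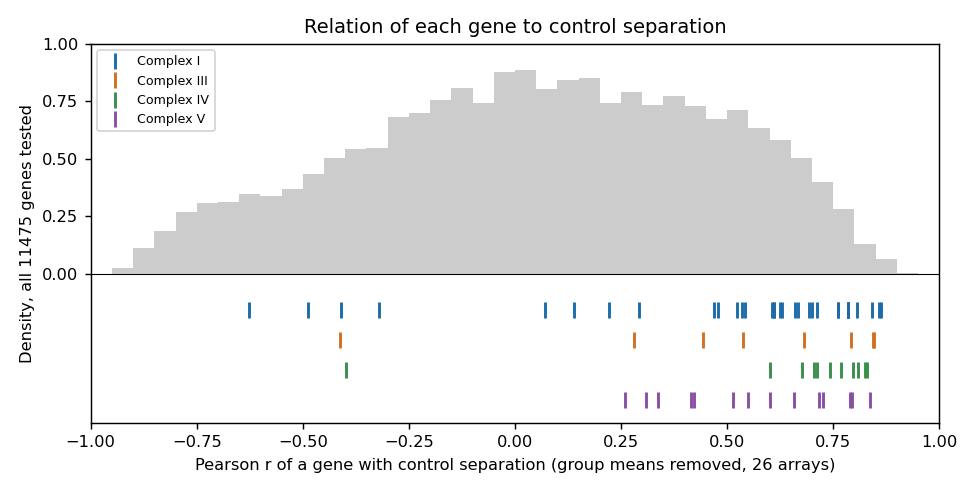
Pearson r of each gene with control separation after group means were removed (horizontal axis, 26 arrays); the grey histogram is the density of all 11475 genes tested and each tick is 1 tested member of complex I, III, IV or V. Most ticks stand to the right, with 47 of 66 above 0.5, and 6 stand below 0.

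Some other gene lists also followed control separation, and others hardly did. Genes for mitochondrial ribosomal proteins had an r of 0.928 for their mean over 26 arrays and those with the prefix of cytosolic ribosomal proteins 0.721. The citrate cycle enzymes had -0.538. Of the cell type lists, general neuron markers had -0.422, hippocampal neuron markers 0.716 and microglia markers 0.662. Without the 2 arrays farthest from the median these were -0.353, 0.580 and 0.272. Assembly factors of complex I had -0.102 over 26 arrays and regulators of mitochondrial gene expression -0.093. Markers of endothelium and mural cells had -0.088, choroid plexus markers -0.013 and meningeal markers 0.028. The means of the complexes also moved together, with r between 0.857 and 0.938 for the 6 pairs, and between 0.468 and 0.742 after control separation was removed from each.

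When control separation entered the limma model as a covariate, the difference with age became smaller and the intervals narrower. Over both treatments 59 of 66 members were lower, with a median of -0.10, and the complexes had medians of -0.08 (I), -0.13 (III), -0.05 (IV) and -0.12 (V). One member passed the adjusted threshold, Ndufb6, at -0.36 ± 0.09 with an adjusted p of 0.0418, where 1.23% of all genes passed. An unadjusted p under 0.05 was reached by 16 members (24.2%), all lower, beside 11.7% of all genes and 5.66% lower. The call of Ndufb6 held in 12 of the 26 fits that left out 1 animal, with adjusted p from 0.0222 to 0.108 over them. Without the covariate it was called in 1 of 26 such fits, the one without aged aspart animal 6, where it differed by -0.52 ± 0.10 (adjusted p = 0.00271 by limma) and Ndufa9, Cox6a1 and Cox6b1 were called too, where 1.31% of all genes were.

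The covariate took away more of the difference in saline than in aspart animals. Mean control separation was lower in aged saline (0.8212) than in young saline animals (0.8282), and nearly equal in aged and young aspart animals (0.8329 and 0.8335). Control separation and age thus cannot be told apart in the part taken away in saline animals. In saline animals the median went from -0.15 to -0.08, with 52 of 66 members lower, and complex I from -0.11 to -0.04. None was called there (0.418% of all genes were), and 3 members (4.55%) had an unadjusted p under 0.05, all lower, namely Ndufb6, Cox6a1 and Cox6b1, beside 7.65% of all genes and 3.48% lower. In aspart animals the median stayed at -0.14, with 60 of 66 lower; none was called (0.227% of all genes), and 10 members (15.2%) had an unadjusted p under 0.05, all lower, beside 7.42% of all genes and 3.46% lower. Leaving out the 4 arrays of highest control separation in place of the covariate left 63 of 66 members lower over both treatments, with a median of -0.17, and Ndufb6 called at -0.49 ± 0.10, where 0.854% of all genes were called.

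Insulin aspart went with slightly higher subunit values in aged animals when control separation was left out of the model, and with no such shift when it was included. Without the covariate 56 of 66 members were higher in aged aspart than in aged saline animals, with a median of 0.10 against 0.01 over all genes, and complex medians of 0.10 (I), 0.14 (III), 0.10 (IV) and 0.09 (V). With it 44 of 66 were lower, with a median of -0.04, and the complexes had -0.05, -0.03, -0.04 and -0.07. Without aged aspart animal 6 alone the median was 0.02, with 40 of 66 higher. Mean control separation was itself higher in aged aspart than in aged saline animals, so control separation and treatment cannot be told apart in the first shift. Erythrocyte markers also differed between these groups, with a mean over the 3 tested genes of -0.22 ± 1.56 (SD, n = 8) in aged saline and 1.49 ± 2.82 (n = 7) in aged aspart animals relative to young saline. Aged aspart animal 6 was the highest of its group for them, at 6.58, and for microglia markers, at 1.03, and the part of these cells in the shift was not tested.

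No member passed the adjusted threshold between aged aspart and aged saline animals by limma, without or with the covariate, and neither did any other gene (0% in each). An unadjusted p under 0.05 was reached by 3 members (4.55%) without it, beside 4.69% of all genes. With it 2 members (3.03%) did, beside 3.76%, so the members' shares lay near those of all genes. The 3 members without the covariate were Cox8c, Uqcrb and Uqcr10. Cox8c ran from 6.93 to 7.78 in aged saline and 6.49 to 7.29 in aged aspart animals, which overlapped, and its difference was -0.42 ± 0.16 (unadjusted p = 0.0145, adjusted p = 0.911 by limma). Uqcrb ran from 11.66 to 12.01 and from 11.88 to 12.43, a difference of 0.24 ± 0.11. Uqcr10 ran from 10.89 to 11.32 and from 11.01 to 12.08, a difference of 0.30 ± 0.14. With the covariate these differences were -0.30 ± 0.17, 0.14 ± 0.10 and 0.06 ± 0.10. The 2 members with an unadjusted p under 0.05 were then Ndufa13 and Ndufb2 of complex I, both lower.

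Other members that ranked high by size in aged animals were, without and with the covariate, Ndufa2 (0.26 ± 0.14 and 0.06 ± 0.12), Ndufa6 (0.23 ± 0.15 and 0.03 ± 0.13), Cox7b (0.20 ± 0.12 and 0.03 ± 0.10) and Atp5mk (0.21 ± 0.15 and 0.04 ± 0.13). The typical 95% interval of a member, taken as the median over members, was ± 0.25 without and ± 0.21 with the covariate, so smaller differences were not resolved.

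In young animals no member was called at the adjusted threshold, nor was any other gene (0% of all genes, without or with the covariate). None of the 66 reached an unadjusted p under 0.05 either, beside 2.44% of all genes without and 2.47% with the covariate. The median over members was 0.09 in aspart relative to saline, with 49 of 66 higher, and 0.01 with the covariate, with 37 of 66 higher. Ndufb7 had the largest difference of complex I, with 8.72, 7.87, 8.16, 8.36 and 8.38 in young aspart and 7.53 to 8.31 in young saline animals, a difference of 0.29 ± 0.19 and, with the covariate, 0.21 ± 0.16. Ndufab1 differed by 0.26 ± 0.14, Ndufb4 by 0.25 ± 0.19 and Atp5po by 0.27 ± 0.19, and in each of the 4 the groups overlapped.

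Whether the difference with age depended on treatment was tested as an interaction. In the interaction of age and aspart, no member was called by limma, and none reached an unadjusted p under 0.05, without or with the covariate. Over all genes 0% were called either way, and 1.77% and 2.81% reached the unadjusted threshold. The median over members was 0.01 without and -0.07 with the covariate, and the typical 95% interval was ± 0.39 and ± 0.30, so an interaction smaller than this was not resolved.

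**Figure D5:**
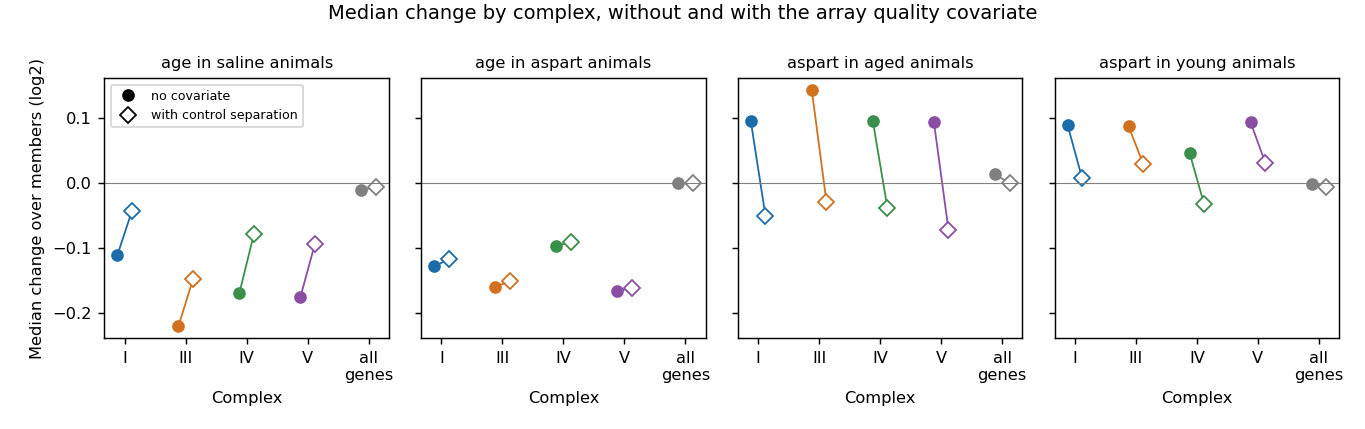
Median difference over the members of each complex and over all genes tested (vertical axis, log2) in the 4 comparisons of 2 groups; filled circles are without and open diamonds with control separation as a covariate. The difference of aspart in aged animals goes from 0.09 to 0.14 without the covariate to below 0 with it, and the difference with age stays below 0.

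Other genes of the pathway were read from lists of fixed membership, of which none had a gene called over both treatments. Complex II, which enters electrons from succinate and is also part of the citrate cycle, had 3 of 4 genes lower with age and a median of -0.14, with Sdhc at -0.19 ± 0.08. Cytochrome c1, Cyc1, the heme subunit of complex III whose symbol fell outside the rule, differed by -0.32 ± 0.11 (adjusted p = 0.243 by limma), and cytochrome c, Cycs, differed by -0.18 ± 0.11. The carriers that move phosphate and nucleotides for complex V had lower means, by -0.20 ± 0.07 for Slc25a3, -0.22 ± 0.09 for Slc25a5 and -0.02 ± 0.05 for Slc25a4.

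Assembly factors of complex I had 7 of 12 genes lower and a median of -0.01, and those of complexes III to V 15 of 23 and -0.06. The citrate cycle had 8 of 13 lower and -0.05, with Mdh2 at -0.19 ± 0.06, and the regulators of mitochondrial gene expression 6 of 13 and 0.05. Mitochondrial ribosomal proteins had 50 of 65 lower and -0.06, and genes with the prefix of cytosolic ones 48 of 77 and -0.03. The latter include 6 genes of ribosomal S6 kinases and 1 pseudogene, without which 45 of 70 were lower, again with -0.03. The difference between these lists and the subunits was not tested.

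Markers of the cell types of hippocampus were read in the same fit. Stmn2, a growth-associated neuronal protein, was the called gene of the general neuron list and fell by 0.23 ± 0.06 (adjusted p = 0.0344 by limma), and 7 of the 10 neuron markers had lower means, with a median of -0.05. The mean log2 level of the list ran from 16.02 to 16.15 in young saline and 15.78 to 16.11 in aged saline animals. Gfap, the astrocyte filament, rose by 0.59 ± 0.09 (adjusted p = 0.000153 by limma), while the astrocyte list had a median of 0.03 with 5 of 8 higher. All 8 microglia markers had higher means, with a median of 0.29, and none was called without the covariate. With it Aif1 and P2ry12 rose, by 0.45 ± 0.11 and 0.48 ± 0.12. The 5 tested markers of hippocampal neurons had a median of -0.02 with 3 lower, and Neurod6, a transcription factor of pyramidal neurons, fell by 0.27 ± 0.07 with the covariate (adjusted p = 0.0418 by limma) and differed by -0.27 ± 0.07 without it (adjusted p = 0.0677). Their part in the subunit differences was not tested.

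Genes of choroid plexus and meninges, tissues that can cling to a dissected hippocampus, also differed. All 5 tested choroid plexus markers and all 7 meningeal ones had lower means in aged animals, with medians of -0.89 and -0.64, and Col1a1 was called (-0.64 ± 0.14, adjusted p = 0.0149 by limma). The levels that follow are means over all 8 genes of a list, including those below the filter. The mean log2 level of the choroid plexus list ran from 5.30 to 10.60 in young saline and 5.12 to 9.34 in young aspart animals. It ran from 4.83 to 6.88 in aged saline and 4.84 to 5.51 in aged aspart animals. In the same order the median animal stood at 5.38, 5.80, 5.39 and 5.13, so the medians of young and aged saline animals hardly differed. For the meningeal list the medians were 6.68, 6.45, 6.25 and 6.37. The highest young animals for choroid plexus were young saline animal 5 and young aspart animal 3. Without those 2 animals 64 of 66 members were lower with age over both treatments, with a median of -0.13, and none was called, where 0.706% of all genes were.

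The members below the filter had low values in every group. Cox4i2, the lung and low-oxygen isoform of Cox4, ran from 3.51 to 4.51 over the animals, Cox6a2, the heart and muscle isoform of Cox6a, from 3.43 to 4.73, Cox8b, a heart and muscle isoform of Cox8, from 3.98 to 5.27, and Ndufa4l2, a low-oxygen paralogue of Ndufa4, from 4.07 to 5.25. These levels lie under or around the filter value of 5.06, where the array gives little information, and no difference was read from them.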

How the data were processed

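Total RNA from the hippocampus of 26 rats was hybridised to 1-colour arrays, 1 array an animal. The deposited table holds log2-scale values that the authors made with RMA in Partek, per the submitters' processing notes. The table does not state its log base. Values reach 19.93 and 216 clusters average above 16, more than a 16-bit scanner gives, so a difference may not equal the ratio of RNA.

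Of 23188 clusters, 15049 carry 1 gene symbol and 8139 none in the platform annotation. The brightest cluster of each gene was used, which gave 15037 genes. A gene was tested where 5 or more arrays gave it a value over 5.06 (percentile 30 of all values), which left 11475. Group means were fitted with limma 3.58.1 in R 4.3.3, with an intensity trend, and Benjamini-Hochberg adjustment ran over all genes tested. A call is an adjusted p under 0.05. The test was checked on simulated data in which genes varied independently. The changes added there were larger than any member's difference with age over both treatments in the main fit. This check thus does not cover small shifts of genes that move together. Errors after ± are standard errors for differences and SD for group values. Control separation is the area under the curve of 399 positive against 1153 negative control features, and it entered a further fit as a covariate.

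The members and lists were chosen with earlier results of these data known. Genes named were those called, the 3 largest differences of each complex in each comparison of 2 groups, a fixed list of known subunits, the ends of ranges and up to 3 genes of each other list by p; other names (Ndufa13, Ndufb2, Ndufs3, Ndufs7 and Ndufs8) were chosen after their values were seen. The labels number the animals, and the deviations of same-numbered animals correlated at -0.233 to 0.309 over 30 pairs, above 0.1 in 12 of them. As not every pair was above 0.1, the main fit did not take the number as a pairing. Same-numbered animals were not compared with differently numbered ones, so these correlations cannot decide whether the numbers pair animals. Nothing in the labels says whether animals were caged or processed together. Alternatives were other filters, scalings, covariates, array weights, the replicate block and leaving out each animal. The negative control median, the median difference between control features as the covariate for calls, leaving out 4 arrays, pruning the ribosomal list, and leaving out animals with the covariate kept were added after seeing the data.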

Additional observations from a re-analysis of the deposited data

Results flagged for a closer look

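Of 200 tests for 1 animal far from the rest of its group, 16 were positive, where chance gives about 1 in 20. The tests share arrays and genes that moved together, so the count cannot show an excess over that rate. Control separation was 0.849 in young saline animal 6, with the nearest other animal at 0.829. On the log2 scale the same animal had 10.441 for Atp5mg (nearest 9.525) and 13.905 for Cox5a (nearest 13.682). Young saline animal 5, which also had the highest choroid plexus level of its group, had 10.824 for Atp5po (nearest 10.35), 13.281 for Cox7a2l (nearest 13.062), 12.701 for Ndufs1 (nearest 12.872) and 11.705 for Ndufv1 (nearest 11.902).

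Aged aspart animal 6, the array of highest control separation, had 16.917 for Atp5f1b (nearest 16.721), 14.827 for Atp5f1e (nearest 14.113) and 13.553 for Uqcrc2 (nearest 14.045). Uqcrc2, a core protein of complex III, also stood apart in young saline animal 4, at 14.494 (nearest 14.209), and in young aspart animal 1, at 13.876 (nearest 14.104). Cox5b stood apart in young aspart animal 4, at 14.235 (nearest 13.688), and in aged saline animal 2, at 12.88 (nearest 13.4). In aged saline animals, Atp5f1e was 14.048 in animal 7 (nearest 13.857) and Cox8a was 16.146 in animal 6 (nearest 16.585).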

How the results depend on the processing

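No called result changed direction. The count of members called for age over both treatments, 0 without a covariate, was 1 with control separation as a covariate, 1 with array weights, 2 with the negative control median as a covariate and 1 without the 4 arrays of highest control separation, and ran from 0 to 4 when each animal was left out, the 4 being without aged aspart animal 6. With control separation the count of 1 was 0 with the replicate block added, 0 with the median difference between control features in its place, 2 with the negative control median in its place, and 0 to 2 when each animal was left out, with 0 in 13 of 26 fits. With the replicate block alone it was 0 members in every comparison. For the fits with the replicate block, the median difference or most left-out animals, the share of all genes called is not given here. A count of 0 in them does not set the members apart from other genes. The median of complex III for aspart in aged animals went from 0.142 to -0.029 with control separation, the only median of a complex to move past the spread between animals. Over all genes, the count called for age over both treatments went from 89 to 141 with control separation, 170 with the negative control median, 135 with array weights and 150 without aged aspart animal 6. In saline animals 30 genes became 48 with control separation and 46 with array weights, and 15 without 1 young saline animal (1, 2 or 3). In aspart animals 6 genes became 26 with control separation and 3 in a fit of those groups alone. The cause of these changes was not tested. Signal over background limits the 4 dim isoforms, and the number of animals limits the precision.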

Other observations

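The table holds 10 clusters whose identifier gives M as the chromosome and which carry no gene symbol. Of these 8 averaged above 19, between 19.734 and 19.901, near the table's maximum of 19.932, so no difference was read from them. The others lay lower, with group means from 18.08 to 18.15 and from 15.26 to 15.60. As no symbol says which gene these clusters read, the subunits encoded by mitochondrial DNA were not compared here.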
